A study of Mus musculus with 2 samples.

Results

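Genes of cholesterol synthesis, uptake and sterol sensing were followed through the cell classes of a mouse neural stem cell culture. The genes were chosen by symbol from a list of 28 names, and all 28 were found among the 28692 genes of the deposited matrix. They hold 19 enzymes of the synthesis pathway, 5 genes of the sterol sensing machinery and 4 genes that move or store cholesterol. Levels are given as CPM, the UMIs (unique molecular identifiers, each standing for 1 captured transcript) of a gene in parts of 1e+06 UMIs of a class of cells. UMIs were counted near the 3′ ends of transcripts, so a level was not divided by gene length, and levels are compared between classes for 1 gene rather than between genes.

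The cells were neural stem cells derived from the subventricular zone, a neurogenic region beside the lateral ventricles, of mice of the strain C57/Bl6J. The labels name 1 control library, which the design text describes as vehicle (DMSO), and 1 library treated with 20HC, an oxysterol, at 1 µM, both sequenced at day 3 after the growth factors EGF and FGF were removed. The treatment text of the control library also mentions 20HC, and the group was taken from its title. No age of the mice, number of animals or number of cultures was given, and there was no replicate of either condition. The deposited matrix pools both libraries, its barcodes end in 1 or 2, and neither the labels nor the files tie these numbers to a library. Barcode set 1 and barcode set 2 are therefore given side by side with no condition, no comparison of control with 20HC was made, and no p-value was computed.

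The matrix held 41462326 UMIs in 14685 barcodes, 10787 of set 1 and 3898 of set 2, and 48 barcode sequences occurred in both sets. After filtering, 13028 cells were kept, with medians of 2822 UMIs in set 1 and 2888.5 in set 2. They fell into 12 clusters, of which 10 took a class name from marker genes: astrocyte-like (7086 cells, 54.4%), cycling-like (2529), progenitor-like (1546), OPC-like (oligodendrocyte precursor-like, 563), fibroblast-like (221), neuroblast-like (196), ependymal-like (53) and microglia-like (36). The larger astrocyte-like cluster, led by Pcp4, had 1 astrocyte marker, Agt, among its 10 leading genes. Beside it stood C1ql1, a marker used for oligodendrocyte precursors, and Stmn2, one used for neuroblasts, so the name rests on a narrow margin. In the fibroblast-like cluster the 6 smooth muscle or pericyte markers summed to 6044 CPM, beside 9065 CPM for the 7 fibroblast markers. That class may therefore hold both kinds of cell. The neuroblast-like class varied with the settings, reaching 2006 cells in a coarser clustering and 1447 with no cell filter. All 10 neural stem or progenitor markers were detected over the kept cells, with a summed level of 2028 CPM, while the 5 endothelial markers summed to 16.3 CPM. A cluster of 519 cells with Lgals1 among its leading genes (median 1093 UMIs) and another of 279 cells led by Car9, a gene induced by low oxygen, stayed unnamed.

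Cholesterol is made from acetyl-CoA through mevalonate and the isoprenoids to squalene, which is closed into lanosterol and then trimmed and reduced to cholesterol. Most of these enzymes are induced by SREBP-2, the product of Srebf2, a factor held in the endoplasmic reticulum by its escort Scap and the Insig proteins while sterols are plentiful. When sterols fall, Scap carries SREBP-2 to the Golgi, where the site-1 protease encoded by Mbtps1 begins its release. Oxysterols bind Insig proteins and keep the complex in place. In the brain nearly all cholesterol is made locally, since lipoproteins of the blood do not cross the blood-brain barrier; astrocytes are known as a source for neurons, and oligodendrocytes need large amounts for myelin.

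The promoters of 4 members are shown because their genes followed different patterns over the classes: Hmgcs1 with the astrocyte-like, Acat2 and Lbr with the cycling-like and Cyp51 with the OPC-like cells. They are RefSeq sequences on the build GRCm38.p6, each in the direction of its gene, taken from the bases before the transcription start and shortened where an annotated untranslated region begins. Capitals mark CACCCCAC, the core of a sterol regulatory element, CCAAT, the box of the partner factor NF-Y, and GGGCGG, the box of Sp1, on either strand; ATTGG and CCGCCC are CCAAT and GGGCGG read from the opposite strand.
Hmgcs1, chr13:119690101-119690350, plus strand: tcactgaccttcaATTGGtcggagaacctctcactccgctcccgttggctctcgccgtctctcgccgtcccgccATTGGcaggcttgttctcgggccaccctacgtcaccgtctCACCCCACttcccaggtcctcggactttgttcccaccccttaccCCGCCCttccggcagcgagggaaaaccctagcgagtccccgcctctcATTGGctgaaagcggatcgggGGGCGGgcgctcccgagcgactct
Acat2, chr17:12960748-12960975, minus strand: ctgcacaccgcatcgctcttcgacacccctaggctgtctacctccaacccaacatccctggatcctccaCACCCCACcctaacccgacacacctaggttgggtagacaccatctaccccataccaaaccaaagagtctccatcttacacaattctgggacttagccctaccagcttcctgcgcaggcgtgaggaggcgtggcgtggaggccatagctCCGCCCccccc
Cyp51, chr5:4104747-4104947, minus strand: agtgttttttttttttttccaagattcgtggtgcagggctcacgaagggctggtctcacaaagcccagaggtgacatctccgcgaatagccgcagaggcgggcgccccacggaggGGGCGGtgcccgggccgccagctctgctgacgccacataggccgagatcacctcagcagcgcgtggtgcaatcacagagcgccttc
Lbr, chr1:181842402-181842651, minus strand: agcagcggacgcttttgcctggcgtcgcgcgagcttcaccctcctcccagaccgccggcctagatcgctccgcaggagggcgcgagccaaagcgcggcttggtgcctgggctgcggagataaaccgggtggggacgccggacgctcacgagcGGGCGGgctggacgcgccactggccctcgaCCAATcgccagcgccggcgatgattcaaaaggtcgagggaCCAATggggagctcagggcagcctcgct

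Of the 28 members, 23 had a promoter in the reference table, while Fdps, Fdft1, Sqle, Npc1 and Stard4 did not. In windows of 250 bases before and 50 after the start, CACCCCAC was present for 2 of the 23 genes, Hmgcs1 (136 bases before the start) and Acat2 (181 bases before it), against 3.30% of the 27025 genes of the table. CCAAT was present for 20 of the 23, against 41.1% of genes, and GGGCGG for 22 of 23, against 38.2%. Each motif was searched on its own on both strands, and overlaps between motifs were not removed. The CCAAT of Cyp51, 29 bases before its start, lies outside the stretch printed above. These are matches of letters in a window, not measured binding sites.

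To be called higher or lower in a class, a member needed 30 UMIs or more, a level in the other kept cells beyond the exact Poisson 95% interval of the class, and a fold of 1.5 or more against those cells, in one direction, with all cells together, within barcode set 1 alone and within barcode set 2 alone. All 28 members had that many. The intervals given below are such intervals and cover counting error only. Clusters were drawn from these same cells, so the calls describe the classes and test nothing; Idi1 was the only member among the 2000 genes used in clustering.

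Astrocyte-like cells had 10 of the 28 members higher, beside 32.5% of all 13037 genes measured, and 3 lower, beside 16.9%. Cycling-like cells had 3 higher, beside 13.5%, and 11 lower, beside 39.9%. Both pairs of shares lie close to what all genes gave. OPC-like cells had 6 higher, beside 6.01%, and 1 lower, beside 15.5%. They held 1919910 UMIs, against 36417161 in the other cells, and genes with few UMIs have wide intervals in a class that small. The shares over all genes are not matched to the members' depth, here or in the other classes. When 2-fold was asked for in place of 1.5-fold, in each set too, Lss alone was higher in OPC-like cells, 5 members were higher in astrocyte-like and 7 lower in cycling-like cells. Lss had few UMIs and a wide interval in OPC-like cells, 13 CPM (8.43 to 19.2). Fdps, Cyp51 and Mvd were over 2-fold higher in OPC-like cells of both sets together and fell short of it in set 2. When genes were not scaled before clustering, or the sterol genes were left out of it at the same resolution, no cluster took the OPC-like name. The median log2 ratio of the 28 members was 0.27 in astrocyte-like cells, where that of all measured genes was 0.16, -0.35 in cycling-like cells, where it was -0.25, and 0.27 in OPC-like cells, where it was -0.10. The 3 members higher in cycling-like cells, Acat2, Lbr and Ebp, were the 3 lower in astrocyte-like cells, and these classes form much of each other's comparison cells.

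**Figure D1:**
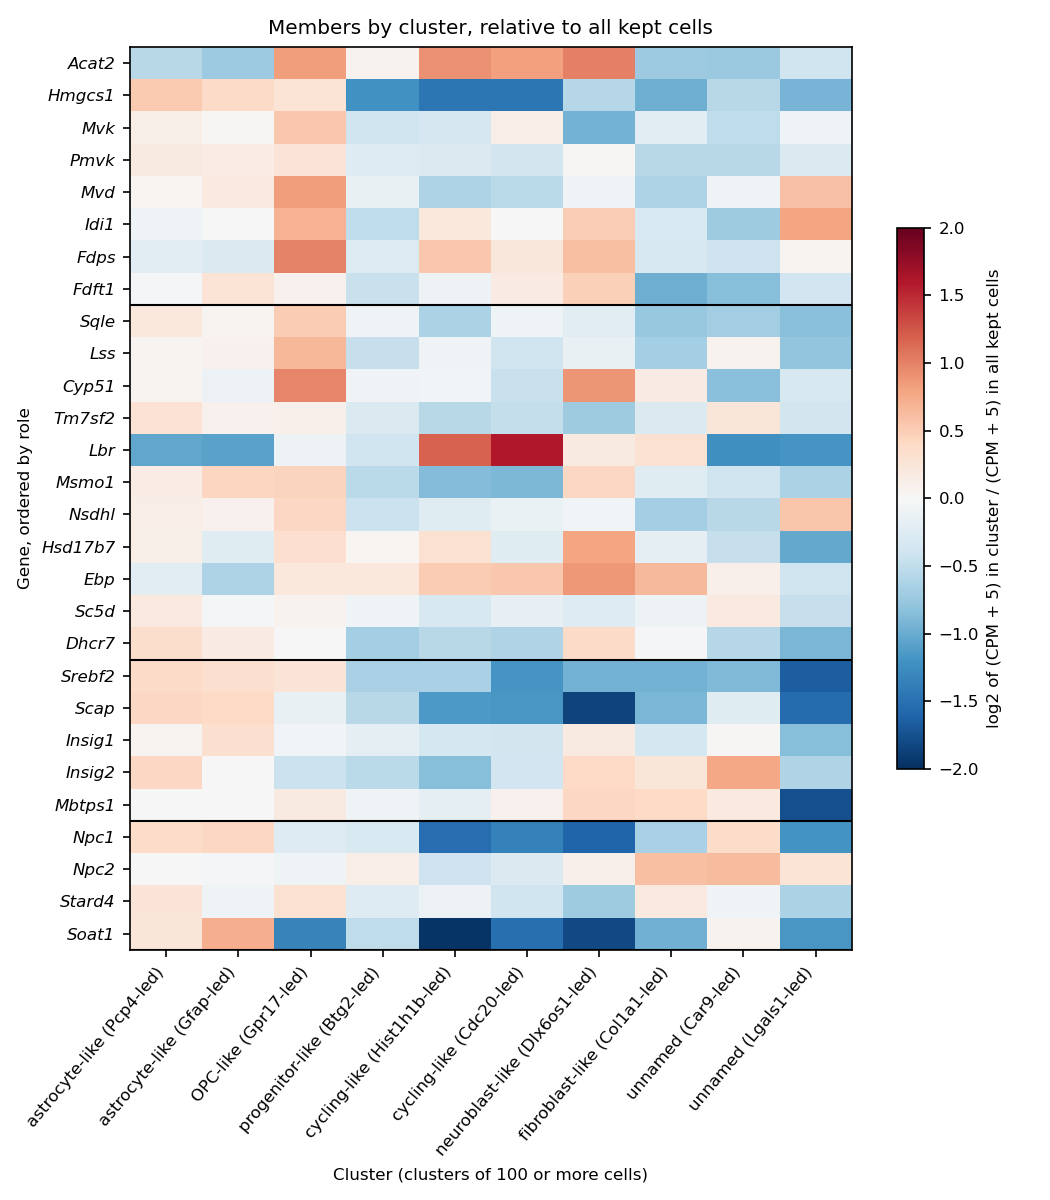
Each row is a member, grouped by role with lines between roles, and each column a cluster of 100 or more kept cells; the colour is the log2 of (CPM + 5) in the cluster over (CPM + 5) in all kept cells. The OPC-like column is red for all 8 genes from Acat2 to Fdft1 and blue for Soat1, and Lbr is red in both cycling-like clusters and blue in both astrocyte-like clusters.

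In the mevalonate arm, which leads from acetyl-CoA to squalene, OPC-like cells had 4 of the 8 genes higher, beside 6.01% of all genes measured, and none lower, beside 15.5%. Fdps, which makes farnesyl diphosphate at the branch point to sterols and prenyl groups, was at 165 CPM (147 to 184) against 75.9 in the other cells; in set 1 it was 185 against 78.1 and in set 2 116 against 69.9. With the astrocyte-like cells taken out of the comparison, Fdps was not called in OPC-like cells. In neuroblast-like cells Fdps was at 125 CPM, with an interval up to 165 that overlapped the OPC-like one. Mvd, the decarboxylase that makes isopentenyl diphosphate, was at 47.9 CPM (38.6 to 58.8) against 23.6. Idi1, which interconverts both forms of the isoprene unit, was at 33.9 CPM (26.1 to 43.2) against 18.2. Both were higher in each barcode set, Mvd at 49.9 against 24.1 and 43.0 against 22.1, and Idi1 at 38.2 against 20.0 and 23.3 against 13.

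Acat2, the cytosolic thiolase that joins acetyl-CoA units, was at 100 CPM (86.4 to 115) in OPC-like cells against 51.6 in the others. Its levels in cycling-like cells, 103 CPM (96.3 to 111), and neuroblast-like cells, 114 CPM (83.0 to 153), had intervals that overlapped that of the OPC-like cells. Astrocyte-like cells stood well below these 3 classes, at 33.3 CPM (30.9 to 35.8). With the astrocyte-like cells taken out of the comparison, Acat2 was not called in OPC-like cells (100 against 78.6 CPM).

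Acat2 lies on chromosome 17 from 12942890 to 12960747 (minus strand), next to Acat3, a close copy of it at 12923813 to 12940600 on the same strand. Acat3 ran the other way over the clusters, with 105 CPM (98.5 to 111) in the Gfap-led and 63.3 (58.8 to 68.1) in the Pcp4-led astrocyte-like cluster, against 6.77 (3.61 to 11.6) in OPC-like cells. In the Cdc20-led and Hist1h1b-led cycling-like clusters Acat3 was at 7.75 and 7.39 CPM, where Acat2 was at 99.7 and 106. How reads that fit both copies were counted was not given in the sources used here, so the separate levels are uncertain.

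Hmgcs1, the synthase that makes HMG-CoA, was the member of this arm with the plainest astrocyte-like pattern. It was at 127 CPM (122 to 132) in astrocyte-like cells against 44.7 in the other cells, with 134 against 48.7 in set 1 and 109 against 33.3 in set 2. OPC-like cells were close behind at 111 CPM (96.5 to 127), and cycling-like (30.2 CPM), progenitor-like (36.4), fibroblast-like (44.1) and neuroblast-like cells (59.7) were all lower in level. The call was "higher" in astrocyte-like cells and "lower" in cycling-like, progenitor-like and fibroblast-like cells. OPC-like cells, which were not called for Hmgcs1 against all others (90.2 CPM), were called higher against the cells that were not astrocyte-like (36.0 CPM). In that comparison 9 of the 28 members were higher, beside 8.50% of 11492 genes, and none was lower, beside 8.57%; the others were Mvk, Mvd, Idi1, Lss, Cyp51, Tm7sf2, Srebf2 and Scap.

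Pmvk, the second kinase of the pathway, ran from 52.2 CPM in the Car9-led cluster to 94.8 in OPC-like cells and was called in no class. Mvk, the first kinase, was at 30.7 CPM (23.4 to 39.6) in OPC-like cells against 19.1 in all others, and was not called there, since in set 2 it was at 25.1 against 17.8. Fdft1, which makes squalene, was at 18.5 CPM (11 to 29.2) in fibroblast-like cells against 42.0, and it was called lower there and in the Car9-led cluster (20.6 CPM, 11.5 to 34.0).

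Beyond squalene, OPC-like cells had 2 of 11 genes higher and none lower, beside the same 6.01% and 15.5%. Cyp51, the lanosterol demethylase, was at 55.7 CPM (45.7 to 67.3) against 24.4, and in the sets it was at 64.6 against 26.0 and 34.0 against 20.1. Lss, which closes the squalene epoxide ring system, was at 13 CPM (8.43 to 19.2) against 5.96. Sqle, the squalene epoxidase, was at 54.2 CPM (44.3 to 65.6) against 35.7 and missed the call, since in set 2 it stood at 35.8 CPM (21.9 to 55.3) against 31.7, under 1.5-fold. Within the cycling-like cells, Sqle was the 1 of 26 measured members higher in the Cdc20-led cluster, whose leading genes act in mitosis, at 34.3 CPM (28.5 to 40.9) against 21.7 in the Hist1h1b-led cluster, whose leading genes act in DNA replication; 5.38% of genes were higher there. Hsd17b7, a 3-keto reductase of the pathway, was the 1 lower, at 8.86 CPM against 15.3, beside 5.77%.

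Tm7sf2 and Lbr both encode a sterol C14 reductase, and Lbr is also the lamin B receptor of the inner nuclear membrane. Lbr was at 42.4 CPM (38.0 to 47.2) in cycling-like and 3.79 CPM (3.01 to 4.70) in astrocyte-like cells. In cycling-like cells it was at 46.5 CPM against 5.74 in the other cells of set 1 and at 32.3 against 4.92 in those of set 2. Its level in the Cdc20-led cluster, 50.1 CPM (43.1 to 58.0), had an interval above those of all 9 other clusters of 100 or more cells, the next being the Hist1h1b-led one at 36.0 (30.6 to 42.2). Tm7sf2 went the opposite way on a small scale, at 9.24 CPM (8 to 10.6) in astrocyte-like and 3.65 CPM (2.45 to 5.25) in cycling-like cells. In OPC-like cells neither was called, with 12 CPM (7.59 to 18.0) for Lbr and 8.33 (4.76 to 13.5) for Tm7sf2.

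**Figure D2:**
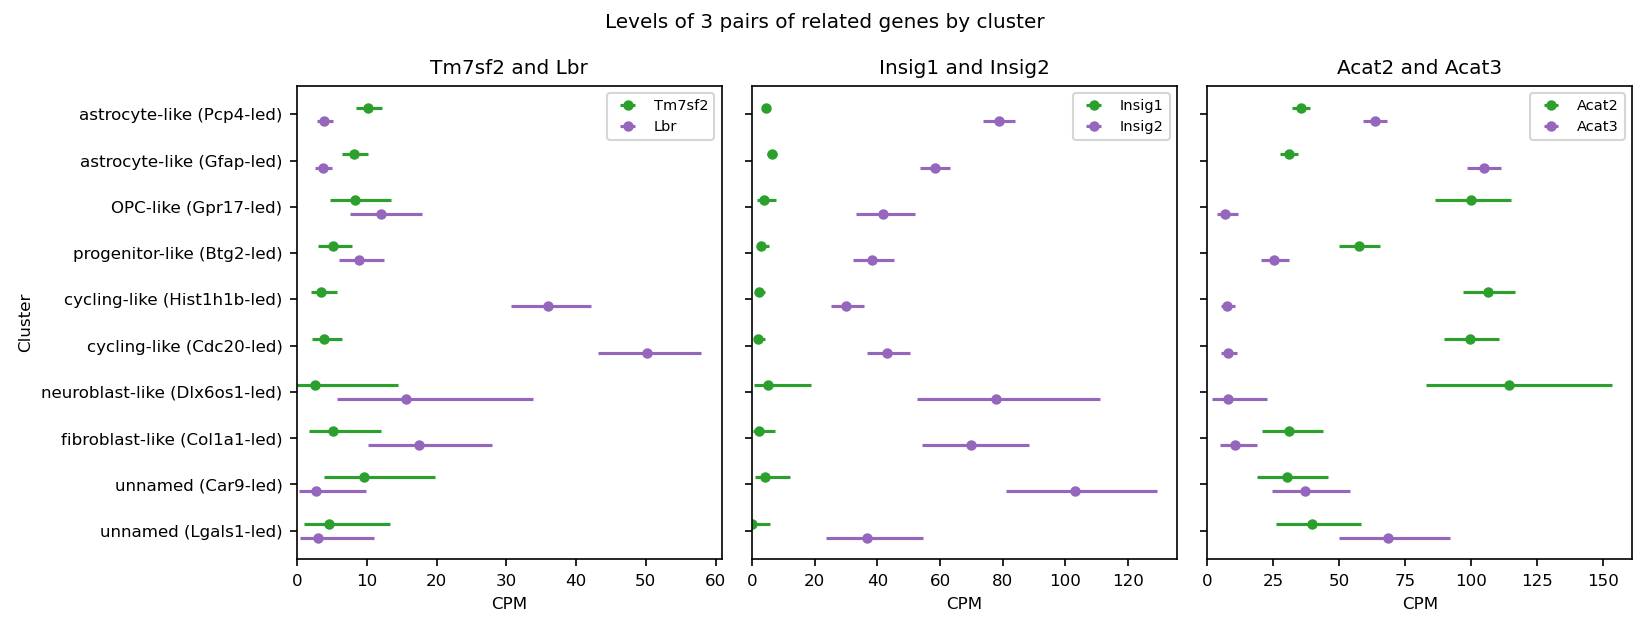
Levels in CPM (horizontal axis) of 3 pairs of related genes in the clusters of 100 or more kept cells (vertical axis), points with exact Poisson 95% intervals. Lbr is at 36.0 and 50.1 CPM in the cycling-like clusters and at 3.68 and 3.88 in the astrocyte-like ones; Insig2 is at 103 CPM in the Car9-led cluster; Acat2 is near 100 where Acat3 is under 8.

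Among the enzymes after the C14 reductases, Msmo1 and Dhcr7 were higher in astrocyte-like and Ebp in cycling-like cells. Msmo1, the C4 methyl oxidase, was at 44.7 CPM (42.0 to 47.7) in astrocyte-like and 17.1 (14.4 to 20.3) in cycling-like cells. Dhcr7, which makes cholesterol from its 7-dehydro precursor, was at 23.6 CPM (21.6 to 25.8) and 11.1 (8.89 to 13.7) in the same classes. Ebp, the sterol isomerase, showed the reverse order, with 19.9 CPM (18.0 to 21.8) in astrocyte-like and 41.9 (37.6 to 46.7) in cycling-like cells. Ebp was also called higher in neuroblast-like cells (54.5 CPM) and fibroblast-like cells (46.2 CPM). Nsdhl, the C4 decarboxylating dehydrogenase, was called lower in fibroblast-like cells (18.5 CPM, 11 to 29.2, against 32.8), and Sc5d, the C5 desaturase, was called in no class.

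The 19 enzymes summed to 944 CPM (901 to 989) in OPC-like, 797 (710 to 891) in neuroblast-like, 660 (649 to 671) in astrocyte-like, 618 (601 to 635) in cycling-like, 487 (465 to 510) in progenitor-like and 460 (418 to 504) in fibroblast-like cells. The 12 astrocyte markers summed to 2575 CPM in OPC-like, 18504 in astrocyte-like and 1842 in cycling-like cells, and the 20 cycling markers to 4440, 231 and 10958 CPM in the same order, beside 2925 in all kept cells. The part of other cell types' transcripts in the sums was not tested. OPC-like cells had the highest enzyme sum of these 6 classes and an interval apart from all of them, and the intervals of progenitor-like and fibroblast-like cells overlapped. In the unnamed Lgals1 and Car9 clusters the sums were 513 CPM (460 to 571) and 427 CPM (381 to 477). The mevalonate arm gave 628 CPM (593 to 664) in OPC-like and 427 (419 to 436) in astrocyte-like cells, and the arm from squalene to cholesterol 317 (292 to 343) and 232 (226 to 239).

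The same order at the top was seen in barcode set 1, with 1043 CPM (989 to 1099) in OPC-like, 890 (785 to 1004) in neuroblast-like and 688 (675 to 701) in astrocyte-like cells. In barcode set 2 OPC-like cells had 704 CPM (636 to 777), neuroblast-like cells 505 (371 to 671) and astrocyte-like cells 582 (562 to 602). OPC-like cells were thus numerically highest in each set, but within each set their interval overlapped that of the neuroblast-like cells. The neuroblast-like interval in set 2, from 48 cells, also spanned the astrocyte-like level. On the log2 scale the OPC-like sum stood 0.61 above the other cells, 0.70 in set 1 and 0.36 in set 2. The ratios of the astrocyte-like and cycling-like cells changed sign with the scaling: for astrocyte-like cells 0.13, and -0.04 once centred on the median of all genes, and for cycling-like cells -0.05 and 0.20.

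**Figure D3:**
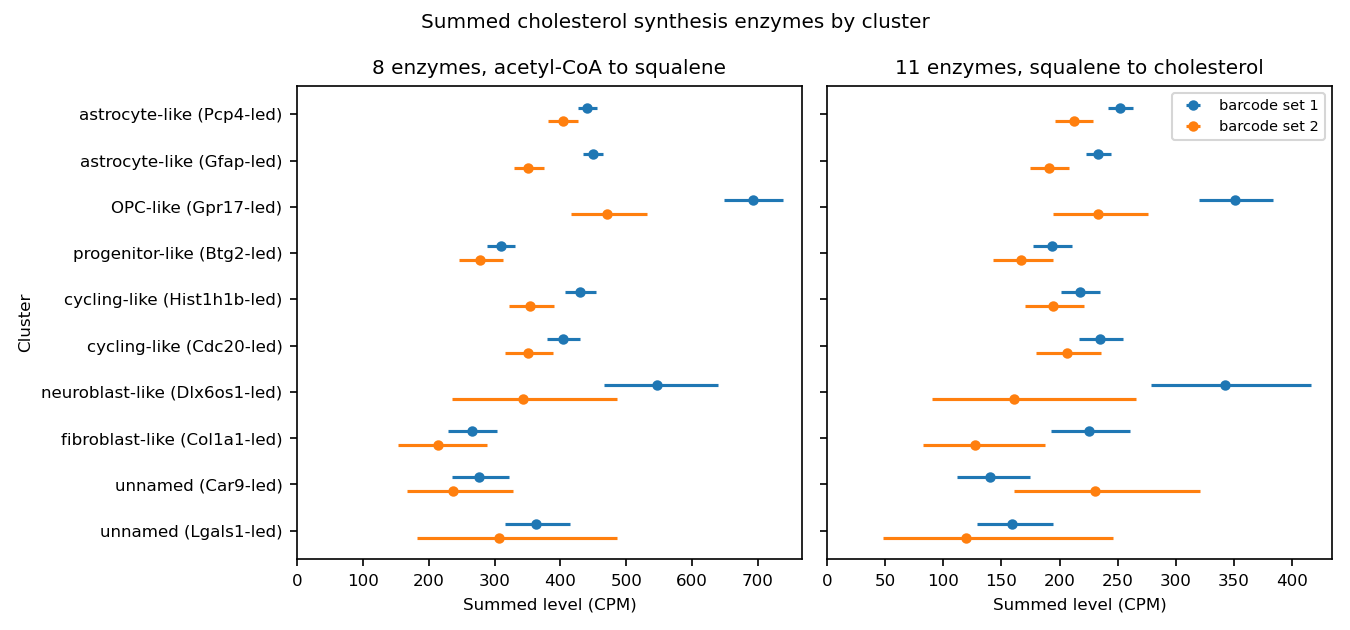
Summed levels in CPM (horizontal axes) of the 8 enzymes to squalene and the 11 from squalene to cholesterol, by cluster of 100 or more kept cells (vertical axis) and barcode set, points with exact Poisson 95% intervals. The OPC-like cluster is the rightmost in the left panel in both sets, at 692 and 471 CPM.

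Depth differed between classes (median 3258 UMIs in OPC-like, 2977 in astrocyte-like and 1930.5 in neuroblast-like cells), so cells were also thinned to 1500 UMIs each, which left 11758 cells. Of the OPC-like cells 18 were left out, of the astrocyte-like 518 and of the neuroblast-like 23. A thinned OPC-like cell had a mean of 1.42 UMIs of the 19 enzymes (SD 1.45 over 545 cells), a neuroblast-like cell 1.24, an astrocyte-like cell 0.978, a cycling-like cell 0.957, a progenitor-like cell 0.700 and a fibroblast-like cell 0.662. No UMI of any of the 19 was found in 30.8% of OPC-like and 41.7% of astrocyte-like thinned cells; unthinned, 89.3% and 79.1% of cells had at least 1. The part of free RNA in these shares was not measured, since no class here is known to lack the enzymes. The 5 OPC-like cells with most enzyme UMIs held 4.74% of those of the class.

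**Figure D4:**
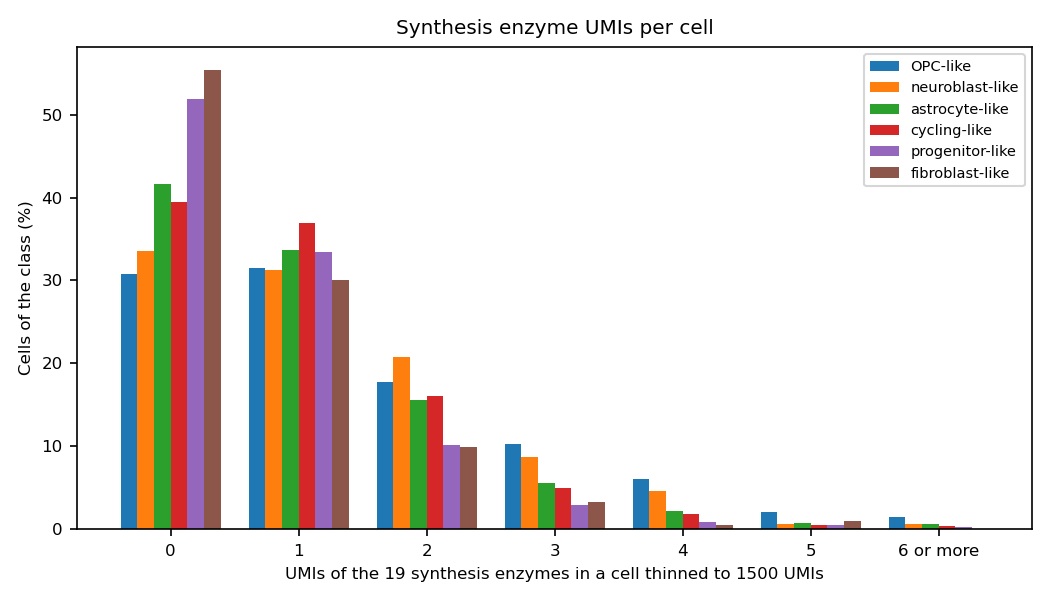
Percentage of cells of each class (vertical axis) by the number of UMIs of the 19 enzymes in a cell thinned to 1500 UMIs (horizontal axis). The OPC-like bars are lowest at 0 UMIs, at 30.8%, where fibroblast-like cells reach 55.4%.

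Within a class the mevalonate arm and the later arm went together weakly from cell to cell. Pearson's r of the 2 sums was computed over thinned cells of both barcode sets together. It was 0.10 in astrocyte-like (6568 cells), 0.06 in cycling-like (2437 cells) and 0.09 in OPC-like cells (545 cells). Both arms were numerically higher in set 1 in these classes, such as 692 and 351 CPM against 471 and 233 in OPC-like cells. The value of r within each set was not computed, and most sums were at 0 to 2 UMIs. Such values of r in sparse counts are no finding. OPC-like cells with a UMI of Pdgfra or Cspg4, genes of early precursors, and none of Gpr17 or Bcas1, genes of committed precursors (83 cells) had 820 enzyme CPM (718 to 933), and those with the reverse (156 cells) 988 (906 to 1076). These intervals overlapped, as did those of the 123 cells with both kinds (961 CPM, 873 to 1055) and the 201 with neither (950 CPM, 877 to 1029).

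Of the 5 sterol sensing genes, 4 were higher in astrocyte-like cells, beside 32.5% of all genes, and none lower, beside 16.9%. The same 4 were lower in cycling-like cells, beside 39.9% of all genes. Srebf2 was at 45.5 CPM (42.7 to 48.5) in astrocyte-like cells against 20.0 in the others, with 45.2 against 20.2 in set 1 and 46.4 against 19.5 in set 2. Scap was at 43.7 CPM (41.0 to 46.6) against 16.1. Both were lower in cycling-like, progenitor-like, neuroblast-like and fibroblast-like cells and in the Lgals1 cluster, with 5.19 CPM of Scap (0.629 to 18.7) in neuroblast-like cells. OPC-like cells had 42.2 CPM (33.5 to 52.4) of Srebf2 and 28.1 (21.1 to 36.7) of Scap, and had none of the 5 sensing genes called against all other cells. Mbtps1 was nearly level, at 25.5 CPM in OPC-like, 22.3 in astrocyte-like and 21.2 in cycling-like cells, and was called in the Lgals1 cluster alone of these comparisons (3.05 CPM, 0.369 to 11).

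Insig1 and Insig2 encode the anchors that hold the Scap complex in the endoplasmic reticulum, and Insig1 is itself an SREBP target. Insig1 had few UMIs, at 5.17 CPM (4.26 to 6.22) in astrocyte-like and 2.02 (1.15 to 3.27) in cycling-like cells, and 0 UMIs in the Lgals1 cluster, where 3 UMIs would be 4.57 CPM. Insig2 was at 69.2 CPM (65.8 to 72.8) in astrocyte-like and 36.0 (32.0 to 40.4) in cycling-like cells. In the Car9-led cluster Insig2 reached 103 CPM (81.0 to 129) and was called higher, 1 of 2 members there beside 3.80% of genes. The other was Npc2, and 4 members were lower, Acat2, Fdft1, Lbr and Srebf2, beside 5.78%.

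Among the genes of transfer and storage, Soat1 showed a 3.21-fold difference, the largest of the members higher in astrocyte-like cells. Soat1 encodes the enzyme that esterifies cholesterol for storage in droplets. It was at 122 CPM (117 to 126) in astrocyte-like cells against 37.8 in the others, and at 144 (137 to 152) in the Gfap-led cluster, an interval above those of all other clusters of 100 or more cells, the Pcp4-led one included (102, 96.4 to 108). It was the member lower in OPC-like cells, at 30.7 CPM (23.4 to 39.6) against 88.0; against the cells that were not astrocyte-like (38.7 CPM) it was not called. Between the 2 astrocyte-like clusters no member met the 1.5-fold condition in either direction, where 4.12% of 12063 genes were higher and 4.73% lower in the Gfap-led one.

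Npc1 and Npc2 hand cholesterol out of the lysosome, the former as the membrane protein and the latter as its soluble partner. Npc1 was at 55.8 CPM (52.7 to 59.1) in astrocyte-like, 33.9 (26.1 to 43.2) in OPC-like and 12.1 (9.79 to 14.8) in cycling-like cells. Npc2 ran from 374 CPM (360 to 387) in cycling-like to 727 (674 to 782) in fibroblast-like cells and 743 (682 to 809) in the Car9-led cluster. The 36 microglia-like cells, too few for calls, had 2274 CPM of Npc2 in the sum of their UMIs. Stard4, a sterol transfer protein of the cytosol, stayed between 2.59 and 10.4 CPM over the clusters of 100 or more cells and was called in none of the comparisons.

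The other classes had mostly lower calls, as they had over all genes. The lower counts lay near the shares over all genes in progenitor-like and neuroblast-like cells and in the Lgals1 cluster. In progenitor-like cells 7 of 28 members were lower, beside 22.4% of genes, and none higher, beside 4.78%; the 7 were Hmgcs1, Lss, Msmo1, Dhcr7, Srebf2, Scap and Insig2. In neuroblast-like cells Acat2 and Ebp were higher, beside 5.94%, and Srebf2, Scap, Npc1 and Soat1 lower, beside 14.2%. In fibroblast-like cells Ebp and Npc2 were higher, beside 10.1%, and 7 members were lower, beside 16.1%. The Lgals1 cluster had Mvd and Idi1 higher, beside 1.82%, and 8 members lower, beside 27.5%; its cells were shallow, the median log2 ratio was -0.52 over all genes there and -0.62 over the members, and its levels of Mvd (39.6 CPM, 25.9 to 58.0) and Idi1 (36.6 CPM, 23.4 to 54.4) had wide intervals.

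The top cluster of each member was counted over the 10 clusters of 100 or more cells. OPC-like cells were on top for 9 of 28 members, neuroblast-like cells for 6, the Pcp4-led cluster for 5, the Gfap-led cluster for 3, the Car9 and Lgals1 clusters for 2 each and the Cdc20-led cluster for 1. The same count was not made over all genes, so these numbers describe no trait of the members. The top cluster's interval was clear of all others for Lbr and Soat1. For the other 26 members it overlapped the interval of at least 1 other cluster, so their order at the top is not settled by these counts.

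Genes around the pathway were described from 5 further lists, whose counts stand beside 32.5% of all genes higher and 16.9% lower in astrocyte-like, 13.5% and 39.9% in cycling-like and 6.01% and 15.5% in OPC-like cells. Of 8 genes of isoprenoid branches, 3 were higher and 1 lower in astrocyte-like cells, 1 higher and 4 lower in cycling-like and none called in OPC-like cells. Of 6 electron donors and helpers the counts were 3 and 1, 1 and 3, and 1 and 1. Of 7 genes of SREBP processing and turnover they were 4 and 0, 0 and 4, and 0 and 2. Of 12 other uptake and transfer genes they were 5 and 1, 0 and 6, and 0 and 3. Of 7 storage and oxysterol genes 3 were measured, and all 3 were higher in astrocyte-like and lower in cycling-like cells, with Cyp46a1 lower in OPC-like cells. Several of these counts, such as 3 of 8 and 5 of 12 higher in astrocyte-like cells, lie near the shares over all genes. The median log2 ratios of these lists in astrocyte-like cells ran from 0.24 to 1.01, beside 0.16 for all genes, and in cycling-like cells from -1.41 to -0.31, beside -0.25.

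Among the named genes of these lists, Srebf1, which encodes the SREBP of fatty acid synthesis, was at 19.6 CPM (16.7 to 23.0) in cycling-like cells against 82.9 in the others. Erlin2, a protein of the endoplasmic reticulum membrane, was at 9.19 CPM in cycling-like cells against 25.4. Lrp1, a receptor for lipoproteins with apolipoprotein E, was at 19 CPM (16.1 to 22.3) in cycling-like cells against 128, and Scarb2, a lysosomal membrane protein, at 45.7 against 220.2. Lrp8, an apolipoprotein E and reelin receptor, had 1 UMI in fibroblast-like cells (1.03 CPM, 0.0260 to 5.72, against 19.7).

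Tmem97, which binds sterols and Npc1, ran with Lbr, Ebp and Acat2, at 9.70 CPM (8.43 to 11.1) in astrocyte-like cells against 39.8. The donors of electrons Cyb5a and Cyb5r3 were at 124 and 119 CPM in cycling-like cells against 273 and 306. Of the isoprenoid genes, Pdss1, which builds the tail of coenzyme Q, was at 18.0 CPM (15.2 to 21.2) in cycling-like cells against 5.56, and Fnta, the shared subunit of prenyl transferases, at 14.5 against 49.3. Cyp46a1, the 24-hydroxylase of brain cholesterol, was at 2.02 CPM (1.15 to 3.27) in cycling-like cells against 27.4, Nceh1, an ester hydrolase, at 12.7 against 42.0, and Cyp7b1, an oxysterol hydroxylase, at 0.882 (0.354 to 1.82) against 8.16.

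The barcode sets are unmapped libraries, so their values are given without a condition. Over all kept cells, 24 of the 28 members were numerically higher in set 1 and 4 in set 2, a count not made over all genes. Intervals lay apart for 9 members, all higher in set 1: Acat2, Hmgcs1, Idi1, Fdps, Fdft1, Sqle, Cyp51, Msmo1 and Nsdhl. Of all 13037 measured genes, 5.60% had the set 1 interval above and 7.55% the set 2 interval above. Genes with more UMIs have narrower intervals, so that share is not matched to the members' depth. The median log2 ratio of set 2 over set 1 was -0.15 over the members and 0.03 over all measured genes.

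Hmgcs1 was at 96.8 CPM (93.2 to 100.2) in set 1 and 76.0 (70.7 to 81.5) in set 2, Idi1 at 20.9 (19.3 to 22.7) and 13.6 (11.4 to 16.0), and Cyp51 at 27.9 (26.0 to 29.9) and 20.8 (18.1 to 23.8). The sensing genes stood near equality, with Srebf2 at 34.3 (32.2 to 36.5) and 34.8 (31.2 to 38.6) CPM and Scap at 31.1 (29.1 to 33.2) and 33.4 (29.9 to 37.1). Srebf1, which is no member, was at 60.3 CPM (57.5 to 63.3) in set 1 and 95.9 (90.0 to 102) in set 2. All 9 intervals also lay apart over all deposited barcodes. Within classes they lay apart for 6 members in astrocyte-like cells (Acat2, Hmgcs1, Idi1, Msmo1, Nsdhl and Hsd17b7), for Hmgcs1, Fdps and Msmo1 in OPC-like cells and for Lbr in cycling-like cells. The share over all genes was not computed within classes, so these counts describe no trait of the members. With 1 library of each condition and no map, a library and a condition cannot be told apart here.

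**Figure D5:**
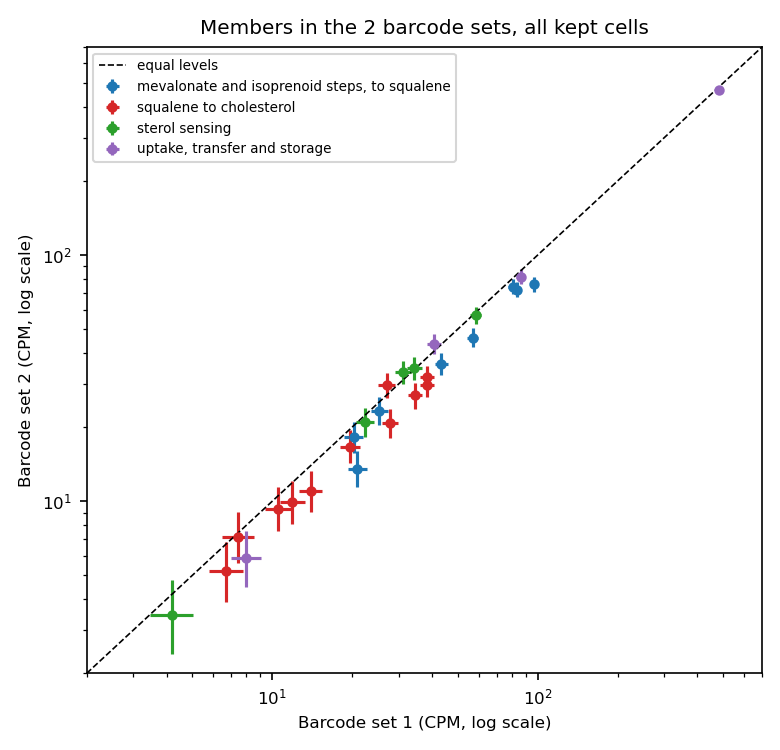
Level of each member in barcode set 1 (horizontal axis) and barcode set 2 (vertical axis) over all kept cells, in CPM on log scales, coloured by role, with exact Poisson 95% intervals; the dashed line marks equal levels. Of the 28 points, 24 lie below the line, and the sensing genes Srebf2 and Scap lie just above it.

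On the mouse build GRCm38, Hmgcs1 (ENSMUSG00000093930) lies on chromosome 13 from 119690379 to 119708260, Fdps (ENSMUSG00000059743) on chromosome 3 from 89093588 to 89101959, Cyp51 (ENSMUSG00000001467) on chromosome 5 from 4081145 to 4104746, Lbr (ENSMUSG00000004880) on chromosome 1 from 181815335 to 181843046 and Soat1 (ENSMUSG00000026600) on chromosome 1 from 156424525 to 156474331. The Lbr promoter stretch printed above lies inside these Lbr bounds, because the RefSeq start used for it lies downstream of the start in this gene annotation. All 28 members are annotated as protein coding. Another annotated gene overlaps 11 members on the opposite strand, Cyp51 (Akap9), Fdft1 (Ctsb) and Lbr (Dnah14) among them, and 4 on the same strand, such as Tm7sf2 (Vps51); 14 have no overlap. Whether counting used the strand was not given in the sources used here, so the levels of the overlapped members may hold UMIs of a neighbour.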

How the data were processed

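The libraries are 10x Genomics Single Cell 3′ libraries, per the labels' protocols, and Cell Ranger 2.1.1 and the build mm10 are named in the submitters' processing notes. The authors deposited whole UMI counts per gene and barcode in 1 pooled matrix; any equalising of depth across the libraries is not stated in these sources. No barcode carries a condition, so the matrix was treated as 1 sample.

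Barcodes with fewer than 500 genes (635) or over 10% mitochondrial UMIs (912) were left out, 1407 in all. Scrublet (scanpy 1.11.5), run within each set, called 2.42% of set 1 (239 of 9869 cells; 7.90% expected at 0.8% per 1000 cells) and 0.323% of set 2 (11 of 3409; 2.73% expected); doublets left were not measured. Counts were scaled to 10000 UMIs per cell, log transformed and scaled per gene; 2000 variable genes gave 30 components and a graph of 15 neighbours, cut into clusters with leidenalg 0.10.2 (resolution 0.5). This clustering was run first, then replaced by one without scaling per gene and with Scrublet's default rate, and then taken up again once the class names of both had been seen, because it was nearer to an earlier processing of these data and named more classes. Clustering without scaling, with the same doublets left out, is among the alternatives.

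A cluster took the class whose markers had the highest mean log2 ratio provided that 3 or more of them reached 10 UMIs and a 2-fold higher CPM and that markers of no other class outnumbered its own in the 10 leading genes; it stayed unnamed if its cells were shallow with no such marker leading. These conditions follow the earlier processing. Log2 ratios used CPM + 5. A count of 0 allows up to 3 counts. On drawn counts of 13011 genes with known changes in OPC-like cells, the calls found 98 of 100 doublings and 90 of 100 halvings. They marked 1.30% of the unchanged genes. The drawn counts had counting error only. The changed genes were picked among well-counted genes alone, so the shares found do not cover members with few UMIs, such as Lss and Insig1.

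The members, the 5 further lists and the rules were chosen with earlier results of these data known. All members are named; of each further list at most the 3 genes with the largest log2 ratio among those called in a class of over 200 cells. Gene positions are from GENCODE M21, in which 28339 of 28692 gene IDs (98.8%) were found. Intervals are exact Poisson, at 95%, and precision is limited by UMIs per class, from 385365 in neuroblast-like to 21653893 in astrocyte-like cells. Some items of this pathway, and some that the rule for the further lists would name, are not reported here.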

Additional observations from a re-analysis of the deposited data

How the results depend on the processing

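Counts of called members and summed enzyme ratios of the astrocyte-like, cycling-like and OPC-like classes were recomputed under 16 alternatives; 75 values stayed within the limits, 15 moved and 6 changed sign, and of the single genes 959 stayed, 133 moved and none changed sign. These counts leave out 12 counts and 168 ratios of single genes that could not change by construction: all with a minimum of 10 UMIs, which every member already passed, the counts with 1 CPM added, which enters no call, and the ratios at a fold of 2. Leaving out the listed sterol genes at resolution 0.8 and clustering without scaling were added after the data were seen. The cause of the moves was not tested.

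The members higher in astrocyte-like cells were 5 with sterol genes left out at resolution 0.8, 5 without scaling and 5 at a fold of 2. The members lower in cycling-like cells were 7 without astrocyte-like comparison cells and 7 at a fold of 2. In OPC-like cells 1 member (Lss) was higher at a fold of 2, required in each barcode set, and 0 were lower without astrocyte-like comparison cells. The summed log2 ratio in OPC-like cells was 0.71 when centred on the median of all genes, 0.75 without astrocyte-like comparison cells, 0.70 in barcode set 1 and 0.36 in set 2. In astrocyte-like cells it was 0.19 at resolution 0.8, 0.0837 with sterol genes left out at resolution 0.8, 0.0831 without scaling and -0.0355 when centred. In cycling-like cells it was -0.10 without scaling, and it turned to 0.0357 with sterol genes left out, 0.20 when centred, 0.0213 in thinned cells, 0.0631 without astrocyte-like comparison cells and 0.0109 with cells weighted equally.

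No cluster took the OPC-like name with sterol genes left out at resolution 0.5 or without scaling, so these gave no OPC-like value; with sterol genes left out at resolution 0.8 there were 537 OPC-like cells. The neuroblast-like class held 386 cells at resolution 0.8 and 1465 with called doublets kept. No cluster took the progenitor-like name at resolution 0.3. Levels and calls of the neuroblast-like and progenitor-like classes were not recomputed under the alternatives. With windows of 250 bases before the start alone, 2, 20 and 21 of 23 member genes held the motifs. No paired analysis was possible because there is 1 library per condition and barcodes carry no sample.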
